A study of Arabidopsis thaliana with 18 samples.

Results

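SR30 (AT1G09140), SR34 (AT1G02840), SR34b (AT4G02430), SCL33 (AT1G55310) and RS2Z33 (AT2G37340) are 5 Arabidopsis genes for serine/arginine-rich (SR) splicing factors, taken by gene identifier from the table of temperature-responsive alternative splicing (AS) events. They were 5 of the 334 genes in that table and carried 6 of its 399 events, and all 6 had a value in every condition. SR30, SR34 and RS2Z33 each had 1 alternative 3′ splice site (A3) event, SCL33 had 1 exon skipping (ES) event, and SR34b had 2 intron retention (IR) events, here called IR 1 and IR 2.

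RNA was sequenced from shoot apical meristem and young leaf tissue. The methods of the study describe removal of leaves, to enrich for the meristem. The plants were wild type (WT, Col-0) and the T-DNA insertion mutants sdg8-2 and sdg26-1. Each genotype had 3 samples per temperature, 18 samples in all, with about 10 plants pooled in a sample. SDG8 and SDG26 are histone methyltransferases that act on lysine 36 of histone H3, so the design asks whether loss of either enzyme alters the splicing response to warmth. All plants grew for 5 weeks at 16 °C in short days (8 h light and 16 h dark) and then either stayed at 16 °C or spent 1 day at 25 °C. Both mutants are single insertion alleles and no complemented line is among the samples, so the allele and the gene cannot be told apart.

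SR proteins bind pre-mRNA through RNA recognition motifs and help the spliceosome to find splice sites through a domain rich in arginine and serine. Their concentration and phosphorylation shift splice site choice in many other genes, and plant SR genes are themselves widely alternatively spliced, often in long introns and often in response to temperature or light. SR30, SR34 and SR34b are the plant counterparts of human SF2/ASF, SCL33 belongs to the plant SC35-like proteins, and RS2Z33 belongs to a plant class with zinc knuckles.

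The measured quantity is the percentage spliced in (PSI), given as a fraction between 0 and 1 of the transcripts that carry the spliced-in form of an event. By the usual convention the spliced-in form is the retained intron of an IR event and the included exon of an ES event; which of the competing 3′ splice sites counts as spliced in for an A3 event is not stated in any source used here. Each condition has 1 value, pooled by the authors over 3 samples and rounded to 2 decimals. The values therefore carry no replicate error and no read depth, and no test was made here of any difference below. Rounding alone can move a difference by 0.01 and a difference of differences by 0.02. A change of at least 0.1 is counted as large throughout. An event entered the table because the authors had called it temperature-responsive in at least 1 genotype. That call used a Bayes factor test on the pooled samples, with filters on isoform-specific reads and on PSI differences within conditions. The changes between 16 and 25 °C are therefore a description of selected events. Expression levels were not used, and the tissue could not be checked against its markers from PSI values.

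In WT, the PSI of SR30, SCL33 and RS2Z33 was higher at 25 than at 16 °C by at least 0.1, and no event was lower by that much. The 3 large increases among 6 events stand beside 93 of all 399 listed events (23.3%) with an increase of that size in WT, and the 0 large decreases stand beside 111 (27.8%). In sdg8-2, SR34 joined the 3 genes with a large increase (4 of 6 events, against 24.3% of listed events) and SR34b IR 1 fell (1 of 6, against 31.8%). In sdg26-1, the 3 increases of WT were present (3 of 6, against 24.8%) and both SR34b events fell (2 of 6, against 34.8%). Since the table was selected for such changes, nothing is read from these counts.

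**Figure D1:**
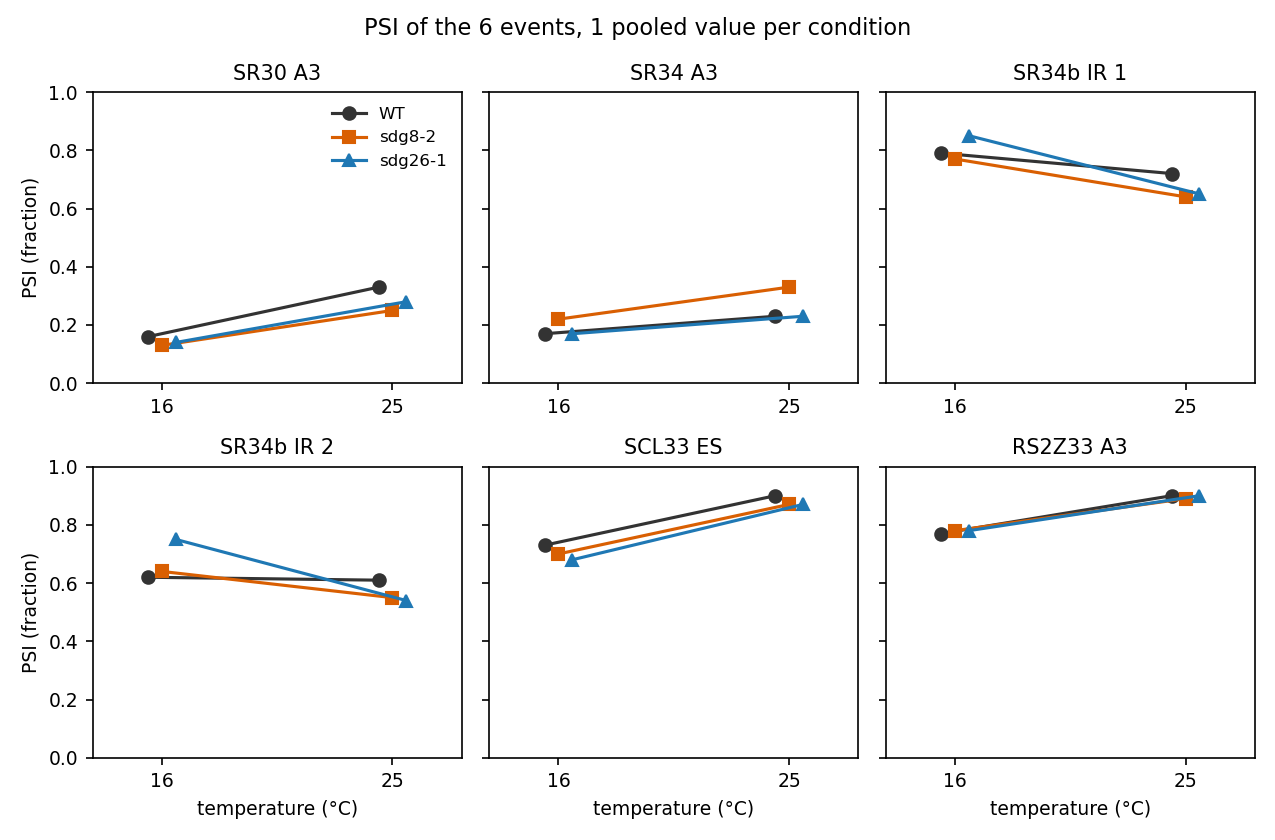
PSI (fraction, vertical axis) of the 6 events at 16 and 25 °C in WT (black circles), sdg8-2 (orange squares) and sdg26-1 (blue triangles); each point is 1 value pooled over 3 samples, so no error bar can be drawn, and points are shifted sideways for legibility. The lines of RS2Z33 lie on each other, SR34 in sdg8-2 runs above the other genotypes, and SR34b IR 2 is nearly level in WT (0.62 and 0.61) but falls from 0.75 to 0.54 in sdg26-1.

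SR30 encodes an SF2/ASF-like protein, and its A3 event rose with temperature in every genotype. At 16 °C its PSI stood at 0.16 (WT), 0.13 (sdg8-2) and 0.14 (sdg26-1), and 25 °C gave 0.33, 0.25 and 0.28 in that order. The highest value at 16 °C (0.16, WT) lay below the lowest at 25 °C (0.25, sdg8-2). WT thus changed by 0.17, sdg8-2 by 0.12 and sdg26-1 by 0.14, and 79 of the 399 listed events had a larger absolute change in WT. Both mutants were below WT at both temperatures, by 0.03 and 0.08 in sdg8-2 and by 0.02 and 0.05 in sdg26-1 at 16 and 25 °C respectively. None of these differences reached 0.1. The change was smaller than that of WT by 0.05 in sdg8-2 and by 0.03 in sdg26-1, the latter close to the 0.02 that rounding can give.

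The table does not give the position of an event within its gene. In the RefSeq annotation of assembly TAIR10.1, SR30 (chr1:2942538-2945976, minus strand, 3 transcripts) has alternative 3′ splice sites in only 1 intron, chr1:2943227-2944168. At 942 bases this is the longest intron of the gene, and 99.0% of all 136308 annotated introns are shorter. The competing acceptors lie 338 bases apart, which is not a multiple of 3. The transcript with the far acceptor encodes 268 codons and ends in the last exon, while the one with the near acceptor encodes 256 codons and stops 359 exonic bases before the last exon junction. The remaining transcript retains the intron. The donor and both acceptors are shown because they are the sites whose choice an A3 event here would report; capitals mark exon bases.
SR30 donor, chr1:2944149-2944178 (minus strand): CTGTCTCAAGgtatgagtgttagatttgta
SR30 near acceptor, chr1:2943555-2943584 (minus strand): ttgcgttgtttgttttctagATCTGGCTCA
SR30 far acceptor, chr1:2943217-2943246 (minus strand): ggtttttggtcttgctgcagGTCCCAATCA
Of the 18 bases before the AG, 14 were C or T at the near acceptor and 12 at the far one, the median over annotated introns being 12. Introns with fewer C or T made up 81.3% of the total for the near acceptor and 49.1% for the far one.

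SR34, the close relative of SR30, had the smallest temperature change of the A3 events in WT and sdg26-1, equalled RS2Z33 in sdg8-2, and was the only member whose PSI in a mutant differed from WT by 0.1 at 25 °C. PSI went from 0.17 at 16 °C to 0.23 at 25 °C in WT and had the same values in sdg26-1. It went from 0.22 to 0.33 in sdg8-2. The value of sdg8-2 at 16 °C (0.22) was thus within 0.01 of the WT value at 25 °C. The change was 0.06 in WT and in sdg26-1 and 0.11 in sdg8-2, and 264 listed events had a larger absolute change in WT. The sdg8-2 values exceeded those of WT by 0.05 at 16 °C and by 0.1 at 25 °C, a value that stands exactly at the size counted as large and that rounding could place on either side. Those of sdg26-1 equalled WT at both temperatures to the 2 decimals given.

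SR34 (chr1:626639-629993, plus strand, 5 transcripts) has annotated alternative 3′ splice sites in 2 introns. One is the intron chr1:628470-629287, which at 818 bases is the longest of the gene (98.6% of all annotated introns are shorter) and has 3 acceptors spread over 511 bases. The other is an intron of 88 bases just upstream of the coding sequence, whose acceptors are 4 bases apart. Transcripts that use the first, second and last acceptor of the long intron encode 272, 285 and 303 codons, and only the last of these ends in the last exon. The 5′ splice site and the acceptors of the long intron follow, again with exon bases in capitals, since the choice among them changes the annotated coding length.
SR34 donor, chr1:628460-628489 (plus strand): CTCCAAGAAGgtaatgatttgattcctttt
SR34 first acceptor, chr1:628757-628786 (plus strand): aaaatggttttgtttcatagATATGGATTT
SR34 second acceptor, chr1:628915-628944 (plus strand): ctaatttacattgctgctagATGGATAACA
SR34 last acceptor, chr1:629268-629297 (plus strand): cttttcttggacttttgcagATCGCGTTCA
C or T took 10, 12 and 14 of the 18 bases before the AG of the first, second and last acceptor. Introns with fewer made up 18.8%, 49.1% and 81.3% of the total, so the acceptor of the 303-codon transcript was the most pyrimidine-rich of these 3.

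SR34b, also of the SF2/ASF group, was the only member whose PSI fell with temperature. It fell in both of its events and all 3 genotypes, although for IR 2 in WT only by the 0.01 of rounding. For IR 1, plants at 16 °C had 0.79 (WT), 0.77 (sdg8-2) and 0.85 (sdg26-1), and plants at 25 °C had 0.72, 0.64 and 0.65. For IR 2, the 16 °C values were 0.62 (WT), 0.64 (sdg8-2) and 0.75 (sdg26-1), and the 25 °C values 0.61, 0.55 and 0.54. In every condition the spliced-in form made up more than 0.5 of the pooled transcripts, and IR 1 exceeded IR 2 by 0.09 to 0.17.

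The drop grew from WT to sdg8-2 to sdg26-1 in both events. Taking WT, sdg8-2 and sdg26-1 in turn, IR 1 changed by −0.07, −0.13 and −0.20 and IR 2 by −0.01, −0.09 and −0.21. In sdg26-1 this came from both ends: PSI was above WT at 16 °C, by 0.06 for IR 1 and 0.13 for IR 2, and below WT at 25 °C by the same 0.07 in both. The change in sdg26-1 was lower than that in WT by 0.13 for IR 1 and by 0.2 for IR 2. Of the 399 listed events, 53 and 28 had a larger absolute difference of changes between these genotypes. In sdg8-2 the drop was larger than in WT by 0.06 and 0.08, and 151 and 115 listed events differed more. A call in 1 genotype alone could place an event in the table. Differences of changes between genotypes are thus partly selected for, and nothing is read from these ranks. The 2 events belong to 1 gene and are read from the same libraries, so they are not independent observations.

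SR34b (chr4:1068974-1072263, plus strand, 4 transcripts) has 2 annotated retained introns. The first is chr4:1069273-1069457, of 185 bases, which 1 transcript retains. The other begins at the donor of chr4:1070887-1071273 (387 bases) and has a second acceptor 11 bases further on, giving an intron of 398 bases that is the longest of the gene and longer than 91.9% of all annotated introns. Which of these IR 1 and IR 2 stand for cannot be told from the table. They may be different introns, or the same intron with each of its acceptors. No annotated SR34b transcript places its stop codon in the last exon: the stops lie between 394 and 852 exonic bases before the last junction. The sites of the longer retained intron are printed because one of its acceptors resembles an acceptor of SR34.
SR34b donor, chr4:1070877-1070906 (plus strand): CTCCACGAGGgtatgcttcatttcttctat
SR34b first acceptor, chr4:1071254-1071283 (plus strand): ataatatccattgctgctagATGGGTAACA
SR34b second acceptor, chr4:1071265-1071294 (plus strand): tgctgctagatgggtaacagTGGAGAGACA
Over 30 bases, the first acceptor of SR34b and the second of SR34 have 26 bases in common, while the next most alike of 51 pairs of acceptors from different members share 17 and the median pair shares 11. In the annotation this intron holds competing acceptors in both genes, and an SR34b transcript retains it. The second SR34b acceptor has 8 C or T among the 18 bases, fewer than 90.4% of annotated introns.

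SCL33, an SC35-like factor, had the largest temperature changes of the members in WT and sdg8-2, in WT together with SR30. The PSI of its ES event at 16 °C was 0.73 (WT), 0.7 (sdg8-2) and 0.68 (sdg26-1), and at 25 °C it was 0.9, 0.87 and 0.87. All 3 values at 25 °C were above all 3 at 16 °C. The changes of 0.17, 0.17 and 0.19 spread over 0.02 between genotypes, no more than rounding can give. Of the 399 listed events, 18 had a smaller spread of changes and 349 a larger one, the rest being tied with SCL33. Both mutants were slightly below WT, by 0.03 at both temperatures in sdg8-2 and by 0.05 and 0.03 in sdg26-1.

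SCL33 (chr1:20629698-20633007, plus strand, 7 transcripts) has 1 annotated skipped exon, of 36 bases, within its longest intron, chr1:20631120-20631884, whose 765 bases exceed the length of 98.3% of annotated introns. The transcript with this exon encodes 299 codons and one of those without it 287. An intron of 567 bases lies upstream of the exon, whose length is a multiple of 3. The exon is followed by the bases GC in place of GT, a 5′ splice site that 1.10% of annotated introns share, against 98.6% that start with GT. The exon is printed in capitals with 10 intron bases on each side, since it is the only skipped exon annotated in SCL33.
SCL33 exon, chr1:20631677-20631732 (plus strand): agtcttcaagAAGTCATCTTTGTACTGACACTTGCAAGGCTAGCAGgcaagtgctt

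The assembled locus of SCL33 also held events listed under AAE18 (AT1G55320), a gene for an acyl-activating enzyme that starts 88 bases beyond the end of SCL33. One of the 4 AAE18 events is an ES event with the same 6 PSI values as the SCL33 ES event. They were the only pair of listed events with identical values. AAE18 has no annotated skipped exon and no annotated retained intron. A second AAE18 ES event of the locus stood at 0.67, 0.63 and 0.6 (WT, sdg8-2, sdg26-1) at 16 °C and at 0.85, 0.85 and 0.83 at 25 °C. The remaining AAE18 events were IR events. With the genotypes in that order, PSI rose by 0.3, 0.25 and 0.19 in the first and by 0.13, 0.24 and 0.12 in the other. Whether the entries with identical values are 1 exon, and to which gene it belongs, was not tested.

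RS2Z33 had the most uniform PSI across genotypes of the members. Its A3 event stood at a PSI of 0.77 (WT), 0.78 (sdg8-2) and 0.78 (sdg26-1) before warming, and at 0.9, 0.89 and 0.9 after 1 day at 25 °C. At each temperature the 3 genotypes lay within 0.01 of each other, the size of the rounding error. At 16 °C, 7 listed events had a smaller range between genotypes and 376 a larger one. At 25 °C, 8 had a smaller and 354 a larger range. The rest were tied with RS2Z33 at 0.01, the smallest step that 2 decimals allow. The change was 0.13, 0.11 and 0.12, and 136 of 399 events had a larger absolute change in WT.

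RS2Z33 (chr2:15670147-15672700, minus strand, 6 transcripts) has alternative 3′ splice sites in 1 intron, chr2:15671601-15672224, which at 624 bases is its longest and longer than 97.1% of annotated introns. The acceptors are 218 bases apart. The 4 transcripts with the near acceptor encode 260 or 249 codons, and the 2 with the far one 260 or 290. All of them end in the last exon. An antisense non-coding gene, AT2G08865 (chr2:15671397-15672248, plus strand), covers 852 bases of RS2Z33 including this intron. AT2G37330, also on the plus strand, overlaps the last 41 bases of RS2Z33. The libraries were made with a stranded kit, but whether reads were assigned by strand is not stated in any source used here. The sites are shown with exon bases in capitals, for comparison with those of SR30 and SR34.
RS2Z33 donor, chr2:15672205-15672234 (minus strand): GATACGGAAGgtaattgactcttctatcta
RS2Z33 near acceptor, chr2:15671809-15671838 (minus strand): cttgaatgatcttattgaagGTCTCTGGGA
RS2Z33 far acceptor, chr2:15671591-15671620 (minus strand): gccaacaatttcttccgcagAGTGCGAGAT
Here 10 of the 18 bases before the AG were C or T at the near acceptor and 12 at the far one, the reverse of the order in SR30.

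**Figure D2:**
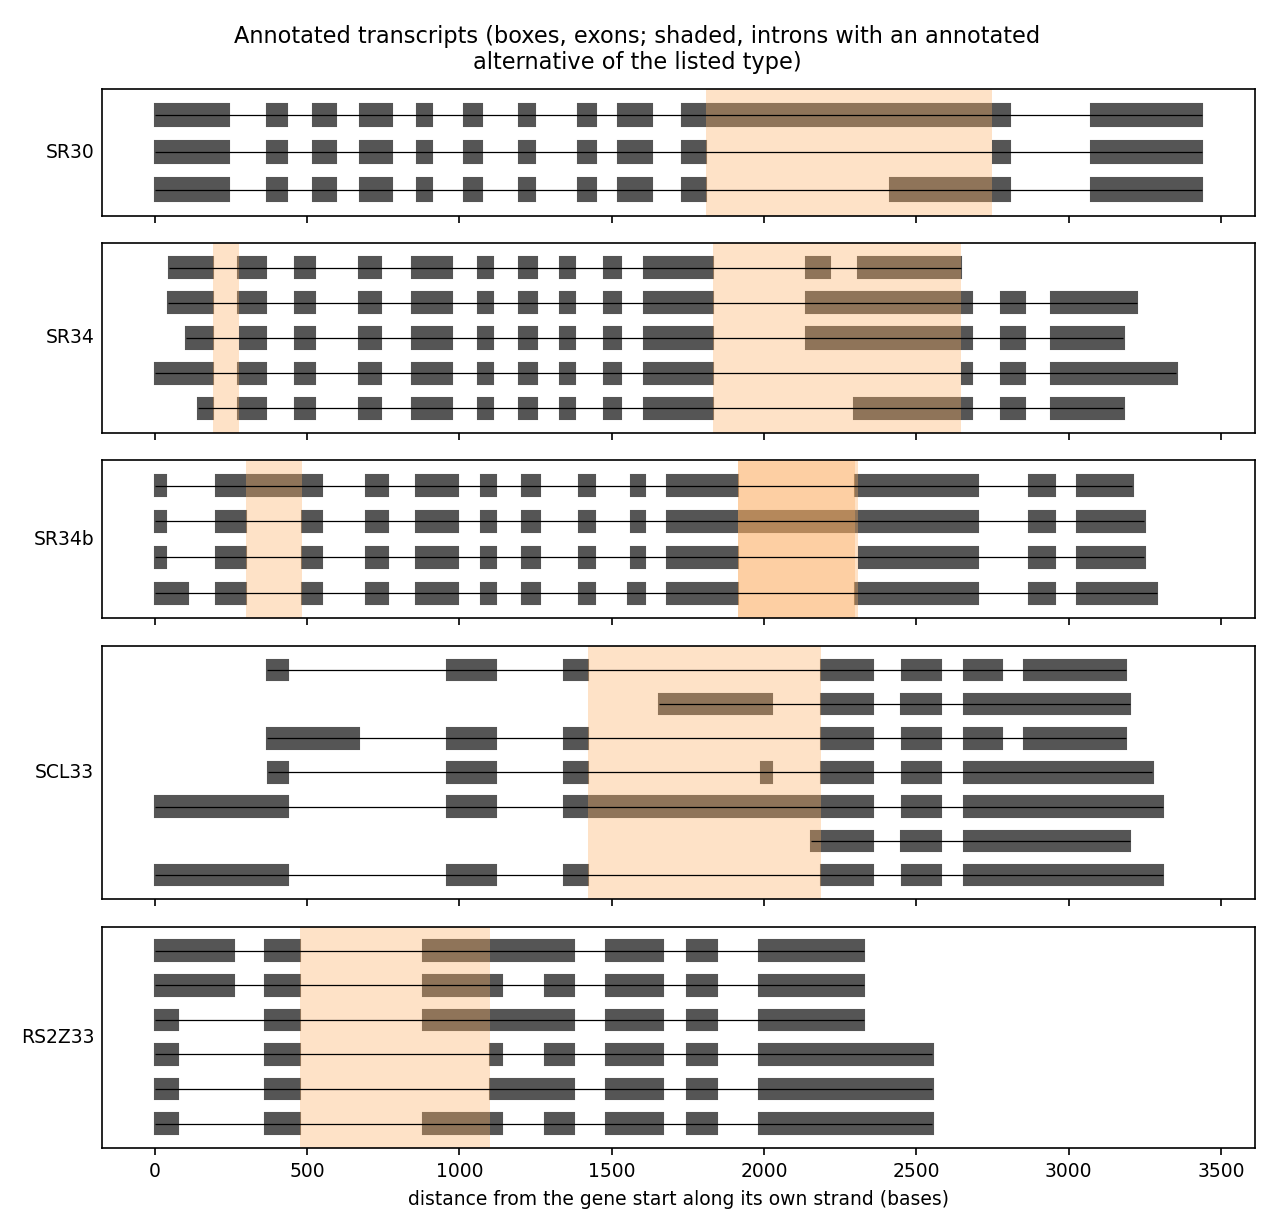
Annotated transcripts of the 5 genes (1 line each, exons as boxes) by distance in bases from the gene start along its own strand; shading marks introns with an annotated alternative of the type listed for that gene, darker where 2 such introns overlap. In all 5 genes a shaded region is the longest intron, of 398 (SR34b) to 942 (SR30) bases, and SR34 and SR34b have a second, shorter one near the start.

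In the annotation, each of the 5 genes had an alternative of the listed type in its longest intron, with a median length of 765 bases. SR34 and SR34b also had such an alternative in a shorter intron, of 88 and 185 bases. Which of their introns was measured cannot be told. The median of 102 bases for all annotated introns covers introns of every rank in their genes, so these medians are not like for like. Among the other genes with a listed A3, ES or IR event, 198 of 286 combinations of gene and event type had an annotated alternative. In 78 of these 198 (39.4%) it lay in the longest intron. Over all 198, the longest intron with an annotated alternative had a median length of 233.5 bases. Of 4 such combinations from other SR genes, 3 had an annotated alternative, each again in the longest intron, of 782 to 900 bases. RS40 enters the 4 with both its IR and its ES event, so the combinations are not all separate genes. These counts describe the annotation, which may not hold the event that was measured, and no test was made.

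**Figure D3:**
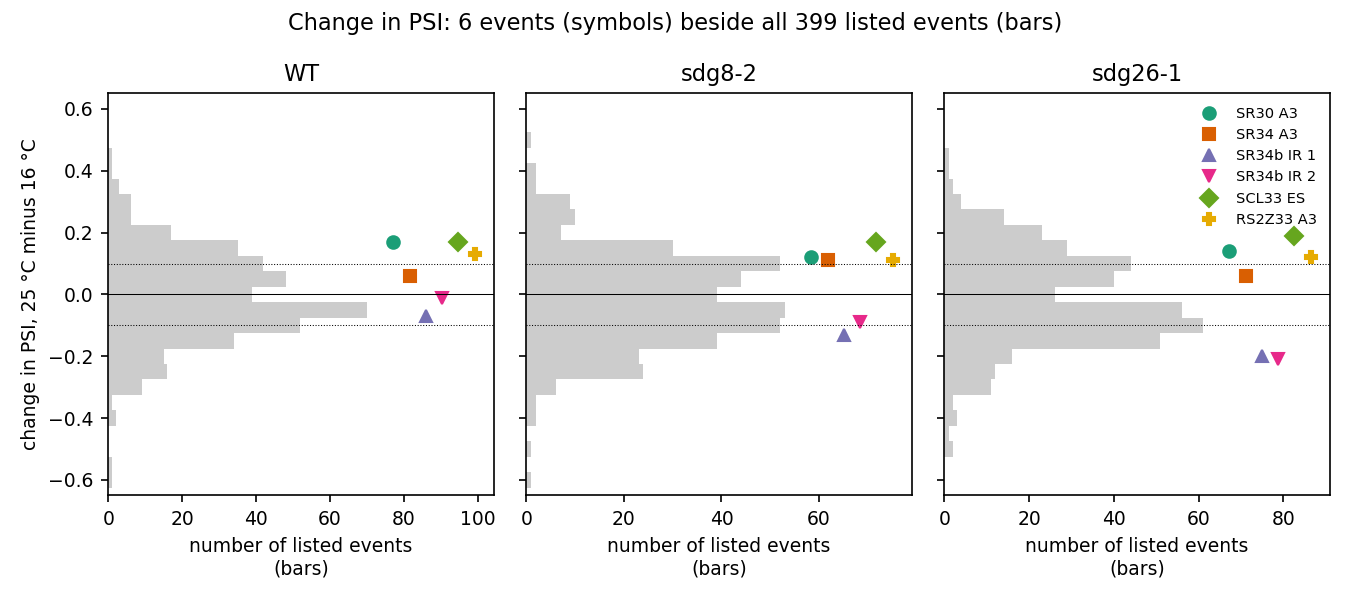
Change in PSI from 16 to 25 °C (vertical axis) in WT, sdg8-2 and sdg26-1; grey bars count all 399 listed events (horizontal axis), and symbols, placed to the right at no particular count, show the 6 events. Dotted lines mark a change of 0.1 in either direction. The A3 and ES events lie above 0 in each panel and the 2 SR34b events below 0, reaching −0.20 and −0.21 in sdg26-1.

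By event type, the 3 A3 events and the ES event rose and the 2 IR events fell in all 3 genotypes. With that small change of IR 2 in WT counted, all 6 events kept their direction across genotypes, beside 335 of 399 listed events (84.0%). Of all listed A3 events, 58 of 130 had a higher and 70 a lower PSI at 25 °C in WT, with a median change of −0.035. Since the spliced-in site of an A3 event is not stated, directions cannot be compared between A3 events. Listed IR events were lower in 95 of 155 and higher in 58. The median absolute change was 0.10 for the members and for all listed events in WT, 0.115 against 0.11 in sdg8-2, and 0.165 against 0.11 in sdg26-1. The last of these medians rests on SR34b, which supplies 2 of the 6 events; with 1 value per gene it was 0.14.

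Mutants were compared with WT at each temperature to ask whether splicing of these genes differed apart from warming. At 16 °C, 0 of 6 events in sdg8-2 differed from WT by at least 0.1 (18.3% of listed events did) and 1 of 6 in sdg26-1, SR34b IR 2 (14.3%). At 25 °C, SR34 was 1 of 6 in sdg8-2 (15.0%), and none of 6 differed by that much in sdg26-1 (9.52%). In sdg8-2, the median absolute difference from WT was 0.025 for the members and 0.04 for all listed events at 16 °C, and 0.07 against 0.03 at 25 °C. In sdg26-1 it was 0.035 against 0.03 at 16 °C and 0.04 against 0.03 at 25 °C. The genotypes share the WT values, so the differences of sdg8-2 and sdg26-1 are not independent of each other.

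**Figure D4:**
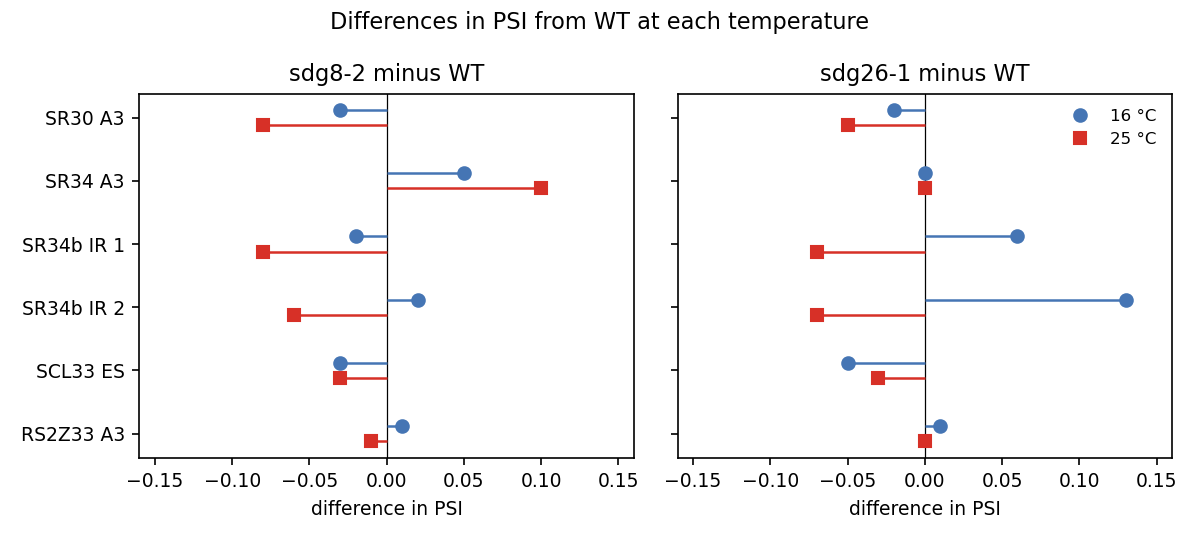
Difference in PSI between each mutant and WT (horizontal axis) at 16 °C (blue circles) and 25 °C (red squares) for the 6 events; each point is the difference of 2 pooled values, without error. SR34 is above WT in sdg8-2 (0.05 and 0.1) and at 0 in sdg26-1, while both SR34b events cross from above WT at 16 °C to below it at 25 °C in sdg26-1.

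Of the 20 genes taken here as the Arabidopsis SR family, which included SR45 and SR45a, 9 had a listed event. These 9 were the 5 members and RS31a, RS31, RS40 and RS41, RS-type factors with 5 events between them. In WT 1 of these 5 events rose and 2 fell by at least 0.1: an IR event of RS40 rose by 0.11, an ES event of RS40 changed by −0.18 and an A5 (alternative 5′ splice site) event of RS31a by −0.17. Over all 11 events of the family, WT had 4 rises and 2 falls of that size, sdg8-2 had 5 and 2, and sdg26-1 had 3 and 4. RS31a had the widest difference between the mutants in the family, with a change of −0.03 in sdg8-2 and −0.25 in sdg26-1, whereas the ES event of RS41 changed by 0.03 to 0.06. Of 4 genes for SR protein kinases, which phosphorylate the arginine- and serine-rich domain, only AFC1 was listed. Its IR event stood at 0.19, 0.26 and 0.16 (WT, sdg8-2, sdg26-1) at 16 °C and at 0.22, 0.34 and 0.33 at 25 °C. Its change was thus largest in sdg26-1 (0.17 against 0.03 in WT), as in SR34b but with the opposite sign. RS31a also had its largest absolute change in sdg26-1, and no link between these genes was tested.

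The events of other genes nearest to each member over the 6 PSI values were found by the mean absolute difference, leaving out events of the member's own assembled locus and so the AAE18 event with the same values as SCL33. Outside the shared loci, the closest match of any member was an ES event of AT5G22620, annotated as a phosphoglycerate mutase family gene, which differed from SR30 by 0.00833 on average. The next nearest to SR30 was an A3 event of COR27, a cold-regulated gene, at 0.0167. RS2Z33 was nearest to an A5 event of AT3G63460, a WD-40 repeat gene, at 0.0183. SR34 was nearest to an A3 event of CYP38, a cyclophilin gene, at 0.0217, and SCL33, apart from AAE18, to an A3 event of AT5G03500, a Mediator subunit gene, at 0.0267. For SR34b, the nearest was an A5 event of AT3G24760 at 0.025 for IR 1 and an IR event of AT5G66240 at 0.0417 for IR 2, the widest of these gaps. This measure follows the level of PSI more than its pattern; after subtraction of each event's mean, 1 of the 12 nearest events was retained.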

How the data were processed

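Per the methods of the study, the authors aligned the reads of 18 libraries to TAIR10 with TopHat2, extended the gene models with Cufflinks, and estimated PSI, deposited as a fraction, with MISO after pooling 3 samples per condition. No source used here states tool versions or read depth. The authors listed events called in at least 1 genotype. A call required a Bayes factor past a cutoff on pooled samples, enough isoform-specific reads in the replicates, and PSI differences smaller within than between conditions. The 6 columns holding the authors' own differences and calls were not used. From the 6 deposited PSI columns, differences between temperatures and genotypes were computed with Python 3.11.15, numpy 2.4.6 and pandas 2.3.3 (figures, matplotlib 3.10.9). A difference of at least 0.1 was counted; thresholds of 0.05, 0.15 and 0.2, log2 odds, and 1 value per gene were alternatives. With 1 pooled value per condition no test was possible. The table's coding ends matched the RefSeq TAIR10.1 annotation in 357 of 366 events, so sequences and coordinates were read from that assembly. The search for annotated alternatives was tested on simulated gene models. All members are reported; for each event the 2 nearest events of other genes were sought. Members and gene lists were chosen with earlier results of these data known.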

Additional observations from a re-analysis of the deposited data

How the results depend on the processing

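No paired analysis was possible because the deposited table holds 1 pooled value per condition; for the same reason no sample could be left out in turn. Counts of the 6 events depended on the size of change required. At 0.05, 1 event fell in WT and 2 in sdg8-2. At 0.15, 1 rose in sdg8-2 and 1 in sdg26-1, and 0 fell in sdg8-2. At 0.2, 0 rose in any genotype and 0 fell in sdg8-2. Counted by gene, 1 fell in sdg26-1. With 1 value per gene the medians of the absolute change were 0.13 (WT), 0.11 (sdg8-2) and 0.14 (sdg26-1), so that WT and sdg8-2 changed places. The mean over the 6 events in sdg26-1 was 0.153. On the log2 odds scale 34 of 36 differences kept their sign or stayed at 0, the change of SCL33 in sdg8-2 minus that in WT went from 0 to −0.21, and 1 difference reversed: the change of SCL33 in sdg26-1 minus that in WT, 0.02 in PSI, was −0.08. On that scale the median absolute change over the 6 events was 0.96, 1.04 and 1.35 in WT, sdg8-2 and sdg26-1, in the order of the PSI medians. Without depth or replicates, differences near the rounding error, such as those between genotypes in RS2Z33, cannot be told from 0.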

Other observations

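Beyond the SR family, 3 of 11 other splicing regulators examined had a listed event. U2AF65A and U2AF65B, both forms of the large subunit of the factor that binds the pyrimidine tract before a 3′ splice site, each had an A3 event whose PSI was lower, and an IR event whose PSI was higher, at 25 °C in all 3 genotypes. The U2AF65A A3 event stood at a PSI of 0.68, 0.66 and 0.69 (WT, sdg8-2, sdg26-1) at 16 °C and of 0.57, 0.43 and 0.55 at 25 °C. The U2AF65B A3 event stood at 0.52, 0.52 and 0.54 and, after warming, at 0.3, 0.39 and 0.41. Taking the genotypes in that order, the IR event changed by 0.11, 0.17 and 0.11 for U2AF65A and by 0.15, 0.07 and 0.03 for U2AF65B, the last 2 below the 0.1 counted as large. Since the spliced-in site of an A3 event is not stated, the directions of the U2AF65A and U2AF65B A3 events cannot be compared with those of SR30, SR34 and RS2Z33. PTB1, a pyrimidine tract binding protein, had an ES event that changed by −0.05 in WT, −0.07 in sdg8-2 and −0.17 in sdg26-1. These values have no replicate error and were not tested.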
